A study of Mus musculus with 10 samples.

Results

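The nuclear genes of oxidative phosphorylation were followed across RNA-seq libraries of innate lymphoid cells (ILCs) that were sorted out of skin from adult B6 mice. Members were the genes whose symbol begins with Ndufa, Ndufb, Ndufc, Ndufs, Ndufv, Uqcr, Cox4i, Cox5, Cox6, Cox7, Cox8 or Atp5, together with Sdha, Sdhb, Sdhc, Sdhd, Cycs and Cyc1. Assembly factors of the Ndufaf series and symbols ending in -ps were left out. This gave 91 of the 47643 gene IDs in each library's table. Complex I held 41 members, complex II 4, complex III 9 with Cyc1 among them, complex IV 19 and complex V 17, and cytochrome c (Cycs) stood alone. Members were placed in a complex by symbol, so Ndufa4, whose protein is now counted with complex IV, and its paralog Ndufa4l2 stand with complex I here. The annotation marked 87 members as protein-coding and 4 (Ndufa11b, Ndufb4c, Ndufs6b and Cox6c2) as processed pseudogenes.

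The 10 libraries came from 4 groups. They were epidermal ILCs (n = 3), dermal CCR6+ ILCs (n = 2), dermal Sca1+ ILCs (n = 2) and subcutaneous ILCs (n = 3), and the labels name no allele, agent or treatment. The titles give the markers of the dermal groups, the chemokine receptor CCR6 and the Ly6a product Sca1. The cell type label of replicate 2 in both dermal groups names no marker, so those libraries were placed by title. The series text speaks of triplicates, and 2 libraries were analysed here for each dermal group. No label tells if the replicates of a group are separate mice, pools or sorts, so a p-value here measures spread among libraries that may be only technical.

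Oxidative phosphorylation takes place in the inner mitochondrial membrane. Complexes I and II pass electrons from NADH and succinate to ubiquinone, complex III passes them to cytochrome c, and complex IV passes them to oxygen. Complexes I, III and IV pump protons, and complex V, the ATP synthase, uses the returning protons to make ATP. Most subunits are encoded in the nucleus and a smaller set in mitochondrial DNA, so the nuclear members are translated in the cytosol and imported.

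Promoter sequences are shown for 4 members, 3 of them named in the results below and Ndufa9 as an example of a YY1 match in complex I, as the DNA in which binding motifs of known regulators of this pathway were looked for. Each is the RefSeq window from 250 bases before to 50 after the gene's start on build GRCm38.p6, written on the strand of the gene, with motif matches in capitals. Ndufs3, which differed between epidermal and subcutaneous ILCs, has the window chr2:90904672-90904971 (minus strand), with a match to the ETS motif bound by GABPA, read as CCGGAAGT or its complement ACTTCCGG.
Ndufs3: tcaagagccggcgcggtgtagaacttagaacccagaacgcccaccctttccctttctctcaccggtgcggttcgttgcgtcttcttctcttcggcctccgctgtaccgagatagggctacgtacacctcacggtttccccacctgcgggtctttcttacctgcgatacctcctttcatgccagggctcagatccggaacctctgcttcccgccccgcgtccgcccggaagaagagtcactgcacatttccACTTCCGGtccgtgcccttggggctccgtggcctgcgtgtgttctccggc
Ndufa9, another complex I subunit, has the window chr6:126849095-126849394 (minus strand), with a match to the YY1 motif AAGATGGC.
Ndufa9: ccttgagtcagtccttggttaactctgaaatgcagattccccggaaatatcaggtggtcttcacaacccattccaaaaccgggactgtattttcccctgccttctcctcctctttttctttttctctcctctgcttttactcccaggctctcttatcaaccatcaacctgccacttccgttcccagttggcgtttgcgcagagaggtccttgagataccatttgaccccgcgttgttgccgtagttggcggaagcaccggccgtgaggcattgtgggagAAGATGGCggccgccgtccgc
Cox6a1, the complex IV member with the highest level, has the window chr5:115348909-115349208 (minus strand), with a match to the NRF1 core CGCATGCG, which reads the same on both strands.
Cox6a1: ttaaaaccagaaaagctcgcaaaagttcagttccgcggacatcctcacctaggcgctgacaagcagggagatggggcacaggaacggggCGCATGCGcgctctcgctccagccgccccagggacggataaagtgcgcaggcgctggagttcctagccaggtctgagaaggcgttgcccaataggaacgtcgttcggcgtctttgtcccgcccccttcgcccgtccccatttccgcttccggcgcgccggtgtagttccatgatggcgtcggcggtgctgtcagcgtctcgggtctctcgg
Cycs, whose log2 fold change for epidermal over subcutaneous ILCs was below 0 without passing the test, has the window chr6:50566520-50566819 (minus strand). It has a match to the NRF1 core CGCATGCG.
Cycs: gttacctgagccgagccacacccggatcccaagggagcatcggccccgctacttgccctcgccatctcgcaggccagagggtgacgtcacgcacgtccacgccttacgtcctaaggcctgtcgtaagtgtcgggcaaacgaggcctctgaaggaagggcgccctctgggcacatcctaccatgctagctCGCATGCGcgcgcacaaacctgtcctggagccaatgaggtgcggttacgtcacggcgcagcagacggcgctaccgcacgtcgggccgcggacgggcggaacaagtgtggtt

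Promoter windows were found for 70 of the 91 members and searched on both strands; Ndufa4l2 and Uqcrq are among the 21 with none. The NRF1 core was in 10 of the 70 members (14.3%) and in 2.07% of 27025 genes with a window. The YY1 motif was likewise in 10 members (14.3%), against 3.19% of those genes, and 7 of the members with it belong to complex I. The ETS motif was in 5 members (7.14%), against 4.31% of those genes. The NRF1 core was found in the complex V members Atp5g2, Atp5j, Atp5k and Atp5l, in Ndufa8, Ndufa11, Uqcr11 and Uqcrc1, and in Cox6a1 and Cycs. A match describes these letters only.

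The libraries held 11627222 to 18118544 expected counts, of which the members took 0.922 to 1.75%. ILC genes were found in every library, but their levels differed by layer. Il7r, the interleukin-7 receptor, lay at 479 to 488 CPM (counts scaled to library size) in epidermal, 533 to 546 in dermal CCR6+, 547 to 602 in dermal Sca1+ and 521 to 588 in subcutaneous ILCs. Other ILC genes were less even. Gata3 lay at 491 to 546 CPM in epidermal and 1294 to 2000 CPM in subcutaneous ILCs, and Il2ra at 81.0 to 97.4 and 808 to 1082. Of 13 genes listed for ILCs, 3 were higher and 4 lower in the epidermal group. That list holds Cd3e, Cd3g and Trac, genes of the T cell receptor complex, so it is not of ILCs alone. Cd3g lay at 233 to 341 CPM in epidermal and 92.6 to 194 CPM in subcutaneous ILCs. Cd3e lay at 10.6 to 12.8 and 1.98 to 48.1 CPM, and Trac at 22.9 to 35.9 and 2.54 to 25.7 CPM. The part of T cell RNA was not tested. The 13 summed to 5943 to 6464 CPM in epidermal and 9793 to 10758 CPM in subcutaneous libraries. The part of this difference in the members' values was not tested. Ccr6 lay at 975 to 1354 CPM in epidermal, 779 to 888 in dermal CCR6+, 40.9 to 102 in dermal Sca1+ and 0 to 24.1 in subcutaneous ILCs. Ly6a lay at 149 to 248 CPM in epidermal, 101 to 213 in dermal CCR6+, 1394 to 1418 in dermal Sca1+ and 1208 to 1866 in subcutaneous ILCs, so both sort markers went with the dermal titles. Markers of other cells differed strongly by layer. The 10 keratinocyte markers summed to 3069.6 to 8389 CPM in epidermal and 113 to 246 CPM in subcutaneous libraries, and all 10 were higher in the epidermal group. The 8 fibroblast markers summed to 0.488 to 18.1 CPM in epidermal against 2919 to 4397 in subcutaneous libraries, and the 10 macrophage and dendritic cell markers to 1.81 to 5.65 against 3932 to 7306. Of these, 8 of 8 and 9 of 10 were lower in the epidermal group, as were 8 of 8 endothelial markers. The 7 markers of simple and glandular epithelium summed to 31.3 to 39.6 CPM in epidermal, 25.2 to 29.7 in dermal CCR6+ and 49.6 to 72.0 in dermal Sca1+ libraries. In subcutaneous libraries they summed to 4393, 1679 and 2139 CPM, highest in replicate 1, which also had the lowest summed level of the members, and all 7 were lower in the epidermal group. Those cells use the same pathway, and the part that their RNA takes in the differences below was not tested. In bulk RNA, fewer cells of a type and less RNA per cell cannot be told apart.

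Levels of different genes were compared in deposited TPM (transcript levels scaled to length and library). Summed over the 91 members, the level in TPM was 35482, 43199.5 and 41392 in epidermal, 36320.2 and 38649 in dermal CCR6+, 34009.7 and 36224 in dermal Sca1+, and 26742, 31532 and 33344 in subcutaneous ILCs. Every epidermal library therefore lay above every subcutaneous library on this scale. On the CPM scale, which uses the normalised library sizes of the count test, the same sums overlapped, at 11190.4 to 15446 CPM in epidermal and 9916 to 14005 CPM in subcutaneous ILCs.

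**Figure D1:**
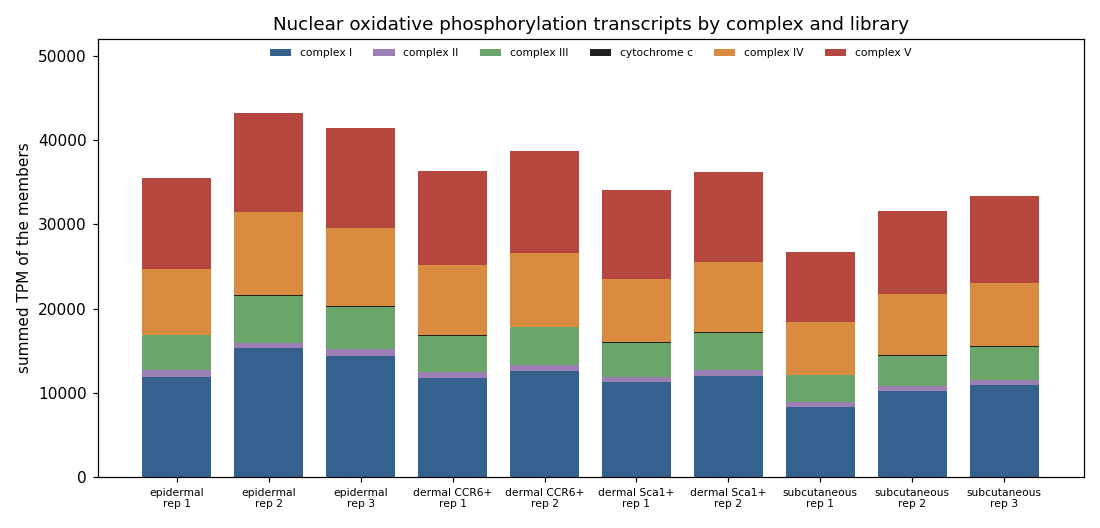
Summed TPM of the members in each library, stacked by complex; each bar is 1 library, with the 3 epidermal libraries at the left and the 3 subcutaneous libraries at the right. Bars run between 26742 and 43199.5 TPM, and complexes I, IV and V make up most of each.

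The split between complexes moved little. Complex I took 33.3 to 35.3% of the members' TPM in epidermal, 32.4 to 32.5% in dermal CCR6+, 33.0 to 33.1% in dermal Sca1+ and 31.1 to 32.6% in subcutaneous ILCs. Complex V took 27.1 to 30.3% in epidermal, 30.6 to 31.2% in dermal CCR6+, 29.6 to 31.0% in dermal Sca1+ and 30.8 to 31.4% in subcutaneous ILCs. Every epidermal library had a larger share of complex I and a smaller share of complex V than every subcutaneous library. Over the 10 libraries, complex IV took 22.1 to 23.2%, complex III 11.4 to 12.9% and complex II 1.57 to 2.38%.

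Within each complex the members spanned a wide range of levels, given here as mean TPM over the 10 libraries. Ndufa1, an accessory subunit of complex I, was its most abundant transcript at 1448 TPM, and Ndufa4l2 the least abundant of those tested at 21.2 TPM. The catalytic core of complex I was lower, with the flavoprotein Ndufv1 at 133 TPM, Ndufv2 at 189, and the iron-sulphur subunits Ndufs1, Ndufs7 and Ndufs8 at 55.2, 216 and 147 TPM. In complex II the iron-sulphur subunit Sdhb led at 307 TPM, over the membrane anchor Sdhd at 184, the flavoprotein Sdha at 167 and the anchor Sdhc at 60.4 TPM.

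In complex III the small subunit Uqcr11 led at 789 TPM, while the electron carriers Cyc1 (cytochrome c1) and Uqcrfs1 (the Rieske protein) lay at 166 and 157 and the core subunits Uqcrc1 and Uqcrc2 at 267 and 102 TPM. Cox6a1 led complex IV at 1385 TPM, with Cox4i1, Cox5b and Cox5a, nuclear subunits that surround its mitochondrially encoded core, at 1155, 621 and 509 TPM. Atp5b, the catalytic beta subunit of complex V, was the most abundant member of all at 1900.2 TPM. The alpha subunit Atp5a1 lay at 459 and the gamma subunit Atp5c1 at 552 TPM. Atp5s, placed with complex V by its symbol alone, was the least abundant member there at 4.0 TPM.

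Several subunits exist as tissue isoforms, and here a single form of each pair carried nearly all transcripts. Over the 10 libraries, Cox4i1 made up 99.0 to 100% of Cox4i1 plus Cox4i2 TPM, Cox6a1 99.6 to 100% of Cox6a1 plus Cox6a2, and Cox6b1 98.3 to 100% of Cox6b1 plus Cox6b2. Cox7a2 made up 91.2 to 98.4% against Cox7a1, a form known from heart and muscle. Of the Cox8 forms, Cox8a made up 99.7 to 100%. Atp5g1, Atp5g2 and Atp5g3 encode the same mature c-ring protein of complex V. Atp5g1 supplied 32.3 to 37.1% of their TPM in epidermal and 28.1 to 30.7% in subcutaneous ILCs, while Atp5g2 supplied 13.3 to 16% in epidermal and 16.9 to 20.1% in subcutaneous ILCs. Those ranges do not overlap, whereas Atp5g3 supplied 46.9 to 54.3% in epidermal and 50.2 to 55.0% in subcutaneous ILCs.

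Differences were tested on counts over all 16208 genes that passed a filter on low counts, with edgeR's quasi-likelihood test and Benjamini-Hochberg adjustment over those genes at a threshold of 0.05. Of the members, 85 passed the filter. The other 6 were Ndufs6b, Ndufa11b, Cox6c2, Cox8b, Cox7b2 and Cox8c. Cox7b2 and Cox8c had 0 counts in every library, and Ndufs6b, Ndufa11b and Cox6c2 had at most 2.21. Cox8b, a heart and muscle form, had 3, 2 and 2 counts in subcutaneous libraries and 0 in all others. When TPM were tested in place of counts with limma, the share of all called genes that were higher became 47.9% against 34.1% on counts for epidermal over subcutaneous ILCs, and 35.6% against 16.0% for epidermal over dermal CCR6+ ILCs. That share became 39.1% against 24.1% for epidermal over dermal Sca1+, and 40.0% against 54.9% for dermal Sca1+ over subcutaneous ILCs. Over all genes, the median for epidermal over subcutaneous ILCs in log2 fold change was -0.02 on counts, 0.08 on log2(TPM + 1) and 0.11 on log2(TPM + 0.1).

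Between epidermal and subcutaneous ILCs, the outermost and deepest groups, 3 members were higher in epidermal ILCs and 0 were lower. The 3 were Ndufa4l2, a hypoxia-inducible paralog of Ndufa4, Ndufs3, a core subunit of complex I, and Uqcrq, a small accessory subunit of complex III. They are 3.53% of the 85 members tested, a smaller share than over all genes, of which 6.87% were higher and 13.3% lower in this comparison. At an unadjusted p under 0.05, 14 members higher and 1 lower (16.5% and 1.18%) stood against 13.2% and 20.4% of all genes. DESeq2 called 5 higher and 1 lower, against 9.23% and 16.9% of all genes, and limma on log2(TPM + 1) called 29 higher and 2 lower, against 12.7% and 13.8%.

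Ndufa4l2 (chr10:127514967-127517154, plus strand of GRCm38, the build of the coordinates below) had 12.7, 38.5 and 24.8 in epidermal, 11.9 and 4.16 in dermal CCR6+, 8.65 and 8.85 in dermal Sca1+, and 3.01, 3.06 and 4.36 in subcutaneous ILCs, in CPM. All 3 epidermal libraries lay above all others, and 1 dermal CCR6+ library lay close to the subcutaneous ones. Its log2 fold change for epidermal over subcutaneous ILCs was 2.86 (SE 0.565, adjusted p = 0.00524 in edgeR's quasi-likelihood test). That value stayed between 2.43 and 3.20 and past the threshold in all 23 alternative fits. Ndufa4l2 supplied 3.39 to 4.73% of the TPM of Ndufa4 plus Ndufa4l2 in epidermal ILCs and 0.604 to 0.906% in subcutaneous ILCs. Its gene overlaps Shmt2 on the opposite strand by 32 bases, and Shmt2 had a log2 fold change of 0.07 (adjusted p = 0.898, edgeR).

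Ndufs3 (chr2:90894634-90904827, minus strand) had 77.7, 112 and 125 in epidermal, 85.4 and 98.4 in dermal CCR6+, 92.6 and 92.5 in dermal Sca1+, and 36.8, 62.1 and 69.5 in subcutaneous ILCs, in CPM. The subcutaneous libraries were the 3 lowest of the 10. The log2 fold change for epidermal over subcutaneous ILCs was 0.90 (SE 0.268, adjusted p = 0.0379, edgeR). Uqcrq (chr11:53427922-53430831, minus strand) had 109, 200.3 and 147 in epidermal, 145 and 163 in dermal CCR6+, 130.4 and 128 in dermal Sca1+, and 56.6, 79.1 and 97.8 in subcutaneous ILCs, in CPM. Here too the 3 subcutaneous libraries were the lowest, and the epidermal and dermal libraries overlapped. The log2 fold change was 0.97 (SE 0.262, adjusted p = 0.0260, edgeR).

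The calls of Ndufs3 and Uqcrq depended on which libraries were in the fit. The count of members higher became 1 (Ndufa4l2 alone) without epidermal replicate 2, epidermal replicate 3, subcutaneous replicate 1 or subcutaneous replicate 2. In those fits 5.19%, 4.35%, 4.72% and 5.11% of all genes were higher. Without epidermal replicate 1 the count became 13, against 6.62% of all genes. The adjusted p of Ndufs3 reached 0.131 without epidermal replicate 3 and that of Uqcrq 0.0967 without epidermal replicate 2 (edgeR). Ndufs3 also lost its call when any of the 4 dermal libraries was left out, with an adjusted p of 0.0513 to 0.0568 in edgeR. Ndufs3 overlaps Kbtbd4 on the opposite strand by 88 bases, and Kbtbd4 had a log2 fold change of 0.60 (adjusted p = 0.261, edgeR).

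**Figure D2:**
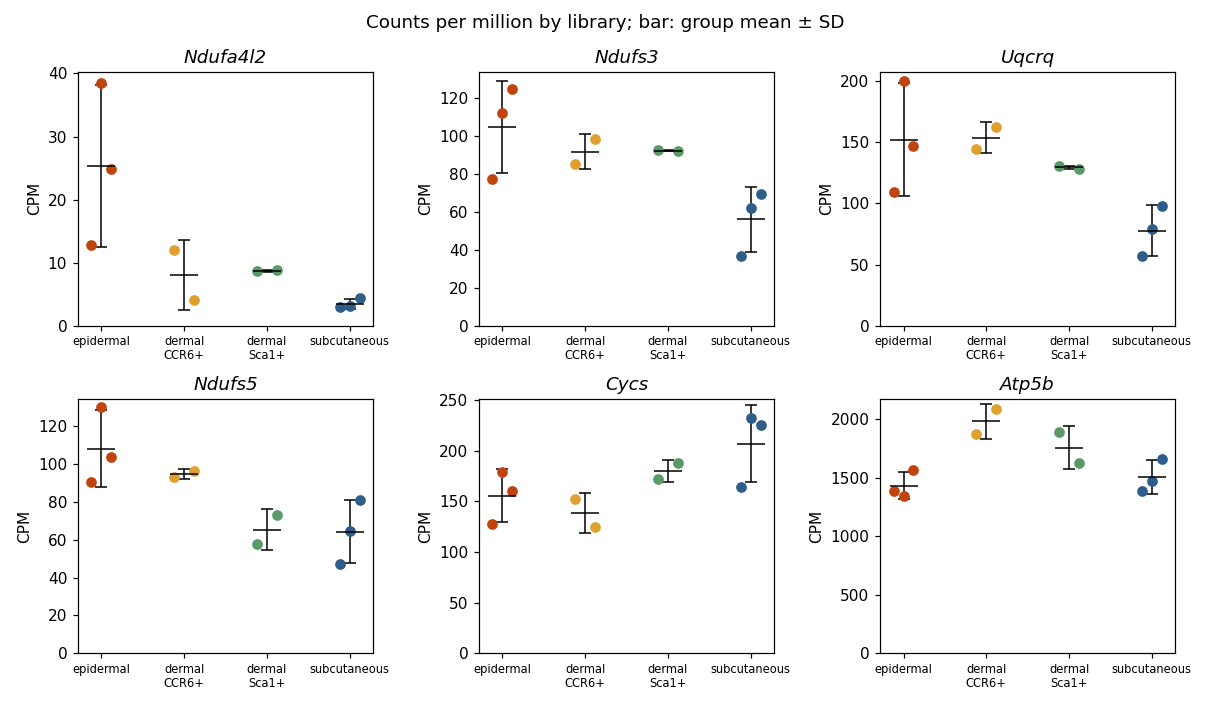
CPM in each library for 6 members, with groups along the x axis from epidermal at the left to subcutaneous at the right; points are libraries and bars the group mean ± SD. The epidermal points of Ndufa4l2, Ndufs3, Uqcrq and Ndufs5 all lie above the subcutaneous points, Cycs has its highest mean in subcutaneous libraries, and Atp5b in dermal CCR6+ libraries.

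Most other complex I members had values on the same side without passing the test. The 39 tested members of complex I had a median log2 fold change of 0.40 for epidermal over subcutaneous ILCs, and 37 were above 0. The closest to the threshold were Ndufs5 (0.75, SE 0.240, adjusted p = 0.0503), Ndufb3 (0.59, SE 0.201, adjusted p = 0.0629), Ndufv3 (0.66, SE 0.231, adjusted p = 0.0704) and Ndufa12 (0.81, SE 0.286, adjusted p = 0.0724), all accessory subunits (edgeR). Ndufs5 had 90.4, 130.3 and 104 CPM in epidermal and 47.1, 64.9 and 80.8 CPM in subcutaneous ILCs, with no overlap. Core subunits varied, with log2 fold changes of 0.60 for Ndufv2, 0.31 for Ndufs7, 0.12 for Ndufs1, 0.10 for Ndufs8 and -0.03 for Ndufv1. Ndufb4c, the pseudogene copy of Ndufb4, was listed at 227 TPM on average against 51.4 TPM for Ndufb4, and how reads were shared between the copies is uncertain.

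The other complexes had smaller medians. Values for epidermal over subcutaneous ILCs were 0.09 over the 4 members of complex II, 0.23 over the 9 of complex III, 0.31 over the 15 tested of complex IV and 0.10 over the 17 of complex V, in log2 fold change. Over all 85 tested members the median was 0.29, against -0.02 over all genes tested, and 72 of the 85 (84.7%) lay above 0 against 48.8% of all genes. The median standard error of a member was 0.248, close to the median change itself. Without epidermal replicate 2 or subcutaneous replicate 1 the median became 0.16 and 0.17, and without epidermal replicate 1 it became 0.48. Between these groups, 8 members (9.41%) were higher and 2 (2.35%) lower with no overlap in CPM, against 17.2% and 22.6% of all genes. Those higher were Ndufa4l2, Ndufs3, Ndufs5, Ndufb3, Ndufv3, Sdhb, Uqcrq and Cox6b2.

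**Figure D3:**
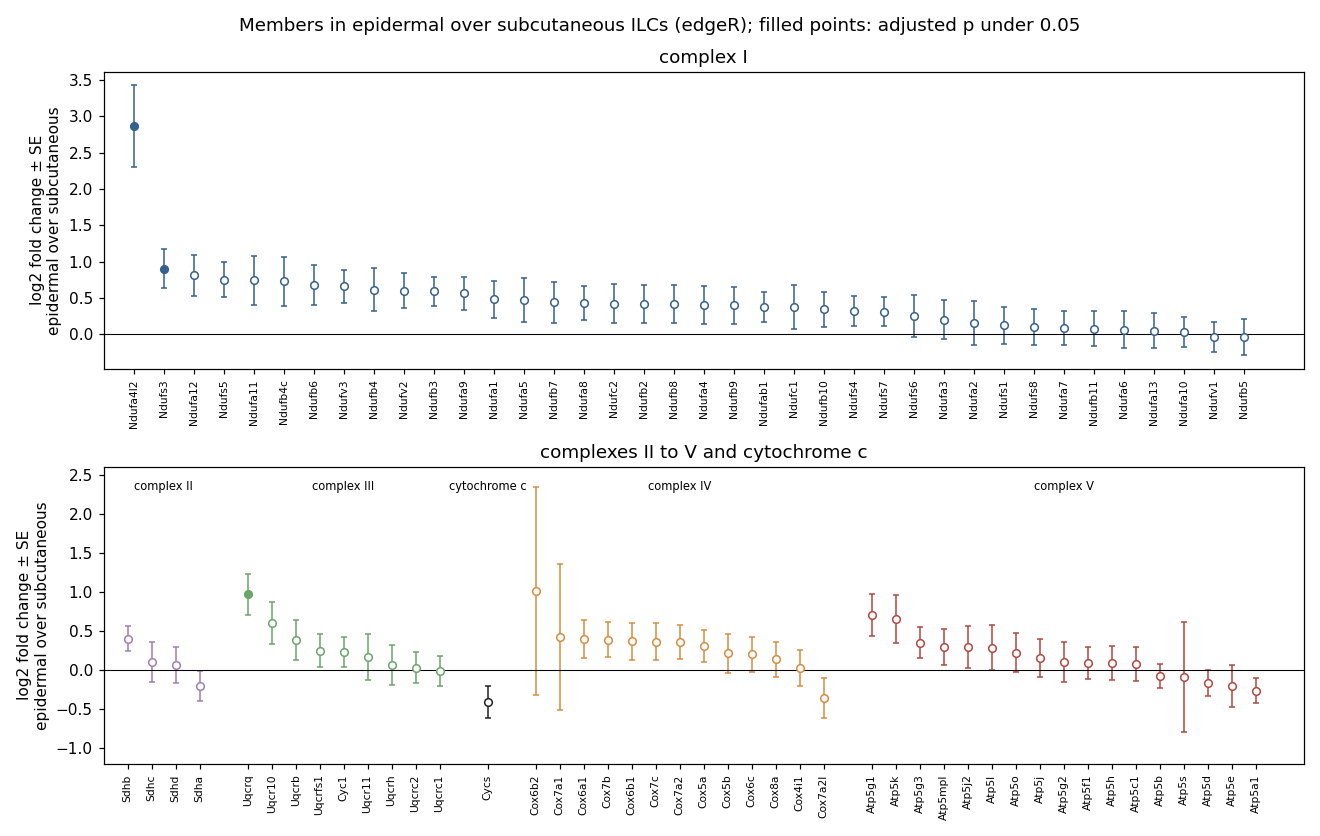
Log2 fold change with its standard error for epidermal over subcutaneous ILCs in the members named on the x axis, by complex; filled points have an adjusted p under 0.05 in edgeR. Ndufa4l2, Ndufs3 and Uqcrq are filled, and Cox4i2 and Cox6a2, at or near 0 counts in epidermal libraries, are not drawn.

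In complex II, Sdhb had 215, 243 and 253 CPM in epidermal and 161, 191 and 187 CPM in subcutaneous ILCs, which do not overlap. Its log2 fold change was 0.40 (SE 0.161, adjusted p = 0.107, edgeR), while the values were 0.11 for Sdhc, 0.06 for Sdhd and -0.21 for Sdha. In complex III, Cyc1 had a log2 fold change of 0.23 and Uqcrfs1 0.25. Cycs, the mobile carrier between complexes III and IV, had 67.6, 72.1 and 68.1 in epidermal, 67.8 and 64.6 in dermal CCR6+, 96.7 and 107 in dermal Sca1+, and 86.2, 96.8 and 92.8 in subcutaneous ILCs, in TPM. On this scale the dermal Sca1+ and subcutaneous libraries all lay above the epidermal and dermal CCR6+ ones. In CPM it had 127, 179.5 and 159.9 in epidermal and 164, 233 and 225 in subcutaneous ILCs, so the groups overlapped, and its log2 fold change of -0.41 did not pass the test (SE 0.204, adjusted p = 0.187, edgeR).

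The 2 members with lower counts in every epidermal library than in any subcutaneous one were complex IV isoforms at very low level. Cox4i2, known from lung and for its induction by low oxygen, had 0, 0 and 2 in epidermal, 23 and 0 in dermal CCR6+, 64 and 22 in dermal Sca1+, and 17, 16 and 16 in subcutaneous libraries, in counts, and was not called (adjusted p = 0.0910, edgeR). Cox6a2, a heart and muscle form, had 3, 0 and 0 in epidermal, 0 and 0 in dermal CCR6+, 0 and 0 in dermal Sca1+, and 19, 13 and 4 in subcutaneous libraries, in counts (adjusted p = 0.211, edgeR). The 13 skeletal muscle markers summed to 2.01 to 5.85 CPM in epidermal, 3.83 to 5.33 in dermal CCR6+, 7.82 to 9.97 in dermal Sca1+ and 60.2 to 219.6 in subcutaneous libraries, and 9 of the 11 tested were lower in the epidermal group than in the subcutaneous one. Their part in the Cox6a2 and Cox8b counts was not tested. Cox6a2 overlaps Itgad on the opposite strand by 953 bases.

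The file names carry numbers, whose meaning the labels do not give, and which were split here into 3 runs. Each run holds at most 1 library of a group. Epidermal replicate 1 and subcutaneous replicate 1 are in a run of their own, and each had the lowest summed TPM of the members in its group. Within the 3 runs the median difference of the members on the log2 CPM scale, for epidermal over subcutaneous, was 0.41, 0.19 and 0.19, with 70, 61 and 71 of the 85 members above 0. With only the 2 runs that hold all 4 groups, edgeR called 6 higher and 0 lower, against 4.77% and 9.62% of all genes. That alternative was chosen after seeing the data. For dermal Sca1+ over subcutaneous ILCs the pooled median was 0.09, while the values within the 2 runs were -0.00 and -0.09, so the pooled difference did not hold within runs.

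Epidermal and dermal CCR6+ ILCs, which share high Ccr6, were compared next. Of the members, edgeR called 0 higher and 0 lower, against 0.987% of all genes higher and 5.19% lower. At an unadjusted p under 0.05, 1 member higher and 4 lower (1.18% and 4.71%) stood against 6.82% and 13.2% of all genes. DESeq2 called 0 higher and 3 lower, against 3.61% and 8.74% of all genes, and limma on log2(TPM + 1) called 1 higher and 0 lower, against 2.41% and 4.36%. The median of the tested members was 0.08, against 0.00 over all genes, and it became -0.08 without epidermal replicate 2, 0.00 without epidermal replicate 3, 0.23 without epidermal replicate 1, 0.05 without dermal CCR6+ replicate 1 and 0.12 without dermal CCR6+ replicate 2. Keratinocyte markers summed to 1645 to 2309 CPM in dermal CCR6+ libraries and fibroblast markers to 1236 to 2127; 4 of 10 keratinocyte markers were higher, and 7 of 8 fibroblast and 8 of 8 endothelial markers lower, in epidermal ILCs, and their part in these values was not tested. The 4 members lower at an unadjusted p under 0.05 were Cox4i2 and 3 subunits of complex V. Atp5a1 had 773, 657 and 709 CPM in epidermal and 931 and 1093 CPM in dermal CCR6+ ILCs (log2 fold change -0.51, SE 0.179, adjusted p = 0.140, edgeR). Atp5b had 1387, 1346 and 1564 CPM in epidermal and 1876 and 2089 CPM in dermal CCR6+ ILCs (-0.47, SE 0.170, adjusted p = 0.149, edgeR). For Atp5d, a subunit of the central stalk, the CPM were 207, 247 and 252 in epidermal and 313 and 365 in dermal CCR6+ ILCs (-0.53, SE 0.183, adjusted p = 0.134, edgeR). Of complex V, the gamma subunit Atp5c1 (-0.07) and Atp5e (-0.10) lay near 0, and over its 17 members the median was -0.00 with 8 above 0. Over all members tested, 2 members (2.35%) were higher and 5 (5.88%) lower with no overlap in CPM, against 15.3% and 19% of all genes; Atp5a1, Atp5b and Atp5d are among the members lower.

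Dermal CCR6+ and dermal Sca1+ ILCs come from the same layer. Of the members, edgeR called 0 higher and 0 lower, where 0.296% of all genes were higher and 0.346% lower. At an unadjusted p under 0.05, 2 members higher and 0 lower (2.35% and 0%) stood against 5% and 5.88% of all genes. DESeq2 called 0 higher and 0 lower, against 1.62% and 1.84% of all genes, and limma on log2(TPM + 1) called 0 higher and 0 lower, against 0.376% and 0.555%. The 2 higher at an unadjusted p under 0.05 were Atp5d, with 313 and 365 CPM in dermal CCR6+ and 244 and 234 CPM in dermal Sca1+ ILCs, and Ndufs8, with 92.9 and 114 CPM in dermal CCR6+ and 69.8 and 56.9 CPM in dermal Sca1+ ILCs. The median over the tested members was 0.13, against -0.01 over all genes. Between these groups of 2 libraries, 37 members (43.5%) were higher and 5 (5.88%) lower with no overlap in CPM, against 19.3% and 20.1% of all genes. Fibroblast markers summed to 1236 to 2127 CPM in dermal CCR6+ and 2574 to 3801 CPM in dermal Sca1+ libraries, and macrophage and dendritic cell markers to 177 to 238 and 337 to 666 CPM. Their part in these values was not tested.

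Set against subcutaneous ILCs, both dermal groups had 0 members higher and 0 lower by edgeR. For dermal CCR6+ over subcutaneous ILCs, 3.75% of all genes were higher and 3.71% lower. At an unadjusted p under 0.05, 5 members higher and 2 lower (5.88% and 2.35%) stood against 10.2% and 12.6% of all genes. DESeq2 called 2 higher and 0 lower, against 6% and 8.47% of all genes, and limma on log2(TPM + 1) called 4 higher and 1 lower, against 5.55% and 6.66%. The 5 higher at an unadjusted p under 0.05 were Uqcrq (0.98, SE 0.287, adjusted p = 0.0683), Sdhb (0.54, SE 0.177, adjusted p = 0.10), Ndufs3 (0.71), Ndufv3 (0.60) and Atp5b (0.40), in log2 fold change by edgeR. Cycs lay at 152 and 125 CPM in dermal CCR6+ ILCs against 164, 233 and 225 CPM in subcutaneous ILCs (-0.58, SE 0.231, adjusted p = 0.167, edgeR). The median over the tested members was 0.22, against -0.08 over all genes, and it became 0.06 without subcutaneous replicate 1 and 0.35 without subcutaneous replicate 3. Within the 2 runs that hold both groups it was 0.11 and 0.05. Here 31 members (36.5%) were higher and 3 (3.53%) lower with no overlap in CPM, against 19.8% and 23.5% of all genes. All 7 simple epithelium markers and 7 of 10 macrophage and dendritic cell markers were lower in dermal CCR6+ ILCs and 8 of 10 keratinocyte markers higher, and their part was not tested. For dermal Sca1+ over subcutaneous ILCs, 1.21% of all genes were higher and 0.993% lower. At an unadjusted p under 0.05, 3 members higher and 1 lower (3.53% and 1.18%) stood against 6.5% and 8.74% of all genes. DESeq2 called 0 higher and 0 lower, against 3% and 4.36% of all genes, and limma on log2(TPM + 1) called 1 higher and 1 lower, against 2.2% and 3.3%. Uqcrq (0.73), Ndufs3 (0.72) and Ndufa4l2 (1.33) were the 3 higher at an unadjusted p under 0.05. The median was 0.09, and it became -0.03 without subcutaneous replicate 1, 0.18 without subcutaneous replicate 2 and 0.21 without subcutaneous replicate 3. Here 13 members (15.3%) were higher and 4 (4.71%) lower with no overlap in CPM, against 15.6% and 18.4% of all genes. All 7 simple epithelium markers and 2 of 10 macrophage and dendritic cell markers were lower in dermal Sca1+ ILCs and 8 of 10 keratinocyte markers higher, and their part was not tested. These comparisons share the subcutaneous libraries with the epidermal one, so the same names in each are not independent.

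For epidermal over dermal Sca1+ ILCs, edgeR called 0 members higher and 0 lower, against 2.75% of all genes higher and 8.66% lower. At an unadjusted p under 0.05, 3 members higher and 1 lower (3.53% and 1.18%) stood against 9.62% and 16.2% of all genes. DESeq2 called 1 higher and 1 lower, against 6.23% and 12.1% of all genes, and limma on log2(TPM + 1) called 5 higher and 1 lower, against 5.84% and 9.08%. Ndufb3, an accessory subunit of complex I, had 62.9, 89.6 and 74.3 CPM in epidermal and 44.4 and 44.4 CPM in dermal Sca1+ ILCs (log2 fold change 0.77, SE 0.230, adjusted p = 0.0580, edgeR). Ndufs5 had 90.4, 130.3 and 104 CPM in epidermal ILCs, all above the 57.8 and 73.0 CPM in dermal Sca1+ ILCs (0.73, SE 0.272, adjusted p = 0.120, edgeR). The median of the tested members was 0.20, against 0.00 over all genes, and it became 0.07 without epidermal replicate 2, 0.12 without epidermal replicate 3 and 0.38 without epidermal replicate 1. Within the 2 runs that hold both groups it was 0.44 and 0.26. Here 6 members (7.06%) were higher and 5 (5.88%) lower with no overlap in CPM, against 18.9% and 22% of all genes. All 8 fibroblast, 8 endothelial and 8 of 10 macrophage and dendritic cell markers were lower, and 4 of 10 keratinocyte markers higher, in epidermal than in dermal Sca1+ ILCs, and their part was not tested.

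Ordered by group mean CPM, 45 of the 85 tested members were highest in epidermal, 29 in dermal CCR6+, 6 in dermal Sca1+ and 5 in subcutaneous ILCs. In that order these are 52.9%, 34.1%, 7.06% and 5.88% of the members, against 28.8%, 20.5%, 20.7% and 29.97% of all genes. Subcutaneous ILCs had the lowest mean for 53 members (62.4%), against 25.2% of all genes. Means fell stepwise through epidermal, dermal CCR6+, dermal Sca1+ and subcutaneous ILCs for 21 members (24.7%), 13 of them in complex I, against 7.13% of all genes. They rose stepwise for 0 members, against 9.04% of all genes. These orders are descriptions, since no member passed edgeR's test between neighbouring groups of that order. The group means also pool the run of epidermal replicate 1 and subcutaneous replicate 1, which holds no dermal library. Within the 2 runs that hold all 4 groups, dermal Sca1+ lay above subcutaneous ILCs for only 41 and 30 of the 85 members. The lowest rank of subcutaneous ILCs and the last step of the fall therefore did not hold within runs for most members.

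The 13 subunits encoded in mitochondrial DNA join the nuclear members in the same complexes. edgeR called 0 of the 13 higher and 0 lower for epidermal over subcutaneous ILCs, against 6.87% and 13.3% of all genes. At an unadjusted p under 0.05 there were 0 in each direction, against 13.2% and 20.4% of all genes. The median log2 fold change of the 13 was 0.10. Their summed level was 43191, 70145 and 67886 in epidermal, 62218 and 31698 in dermal CCR6+, 61744 and 42072 in dermal Sca1+, and 38499, 51834 and 53310 in subcutaneous ILCs, in TPM. The 2 dermal CCR6+ libraries stood far apart, and the epidermal and subcutaneous ranges overlapped. The ratio of mitochondrially encoded to nuclear TPM was 1.22, 1.62 and 1.64 in epidermal, 1.71 and 0.820 in dermal CCR6+, 1.82 and 1.16 in dermal Sca1+ and 1.44, 1.64 and 1.60 in subcutaneous ILCs.

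**Figure D4:**
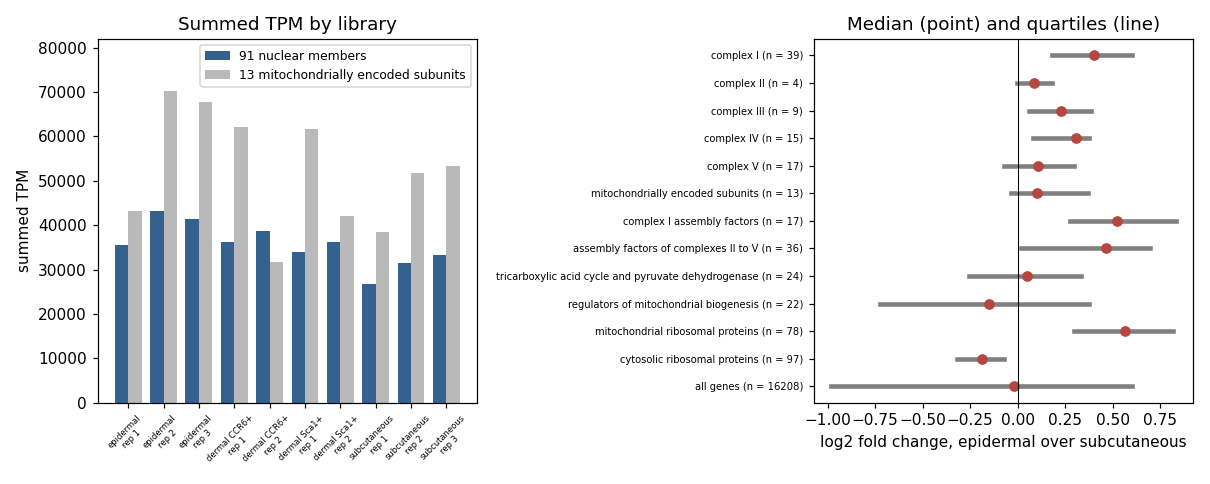
Left, summed TPM of the 91 nuclear members and the 13 mitochondrially encoded subunits in each library, from epidermal to subcutaneous. Right, median (point) and quartiles (line) of the log2 fold change for epidermal over subcutaneous ILCs in each complex, in related gene lists and over all genes tested; the median is 0.56 for mitochondrial and -0.19 for cytosolic ribosomal proteins.

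Assembly factors, which insert cofactors and join subunits but are no part of the finished complexes, were also compared. Of 17 factors for complex I, 3 were higher and 0 lower in epidermal than in subcutaneous ILCs, with a median log2 fold change of 0.52. These shares, 17.6% and 0%, stood against 6.87% and 13.3% of all genes. Acad9 averaged 74.0 ± 15.8 CPM in epidermal and 26.4 ± 3.04 CPM in subcutaneous ILCs (SD, n = 3 each; log2 fold change 1.49, SE 0.238, adjusted p = 0.00154, edgeR) and was called in all 23 alternative fits. The others were Ndufaf1 (1.58, adjusted p = 0.0386) and Ndufaf3 (1.38, adjusted p = 0.0349) by edgeR. Each lost its call without epidermal replicate 2, 3 or any subcutaneous library, and Ndufaf1 also without epidermal replicate 1, with adjusted p up to 0.118 for Ndufaf1 and 0.114 for Ndufaf3 in edgeR. Of 36 factors for complexes II to V, Higd1a (1.16), Uqcc3 (1.12) and Coa3 (1.03) were higher and 0 were lower, with a median of 0.46. The 3 are 8.33% of the list, a share near the 6.87% of all genes. Higd1a is induced by low oxygen, Uqcc3 serves complex III and Coa3 serves complex IV. Without epidermal replicate 2 their adjusted p in edgeR became 0.0542, 0.130 and 0.102. Higd1a also lost its call without subcutaneous replicate 1, and Coa3 and Uqcc3 without epidermal replicate 3, subcutaneous replicate 1 or subcutaneous replicate 2. Uqcc3 also lost it without subcutaneous replicate 3, either dermal CCR6+ library or dermal Sca1+ replicate 2.

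Among 22 regulators of mitochondrial biogenesis, 0 were higher and 5 lower (0% and 22.7%) in epidermal than in subcutaneous ILCs, against 6.87% and 13.3% of all genes. Gabpb1, which encodes a beta subunit that pairs with the ETS factor GABPA, had 39.7, 37.9 and 42.4 CPM in epidermal, 292 and 306 in dermal CCR6+, 412 and 327 in dermal Sca1+, and 183, 213 and 207 in subcutaneous ILCs. The epidermal values lay far below all others. Log2 fold changes were -2.33 (SE 0.170, adjusted p = 1.25e-05) for epidermal over subcutaneous, -2.90 (SE 0.184, adjusted p = 3.90e-05) for epidermal over dermal CCR6+ and -3.21 (SE 0.185, adjusted p = 9.58e-06) for epidermal over dermal Sca1+ ILCs, by edgeR. Myc was also lower, at 43.4 ± 1.21 CPM in epidermal and 112 ± 22.7 CPM in subcutaneous ILCs (SD, n = 3 each; -1.37, SE 0.224, adjusted p = 0.00173, edgeR), as was Polg2 (-1.75), the accessory subunit of the mitochondrial DNA polymerase. Esrrg and Esrrb, nuclear receptors of oxidative tissues, had 0 counts in the epidermal libraries and 115 and 78 counts summed over the subcutaneous ones. Without subcutaneous replicate 1 their adjusted p in edgeR became 0.0694 and 0.0776, and the calls were also lost without epidermal replicate 3 or either other subcutaneous library, for Esrrb also without either other epidermal library. Nrf1, Gabpa, Gabpb2, Yy1, Esrra, Tfam and Ppargc1a were not called in this comparison. Gabpb2, the other beta subunit gene of the list, went the other way from Gabpb1 between epidermal and dermal Sca1+ ILCs. It averaged 38.3 CPM in epidermal and 18.5 CPM in dermal Sca1+ ILCs (log2 fold change 1.05, SE 0.301, adjusted p = 0.0486, edgeR). That call was lost in 18 of the 23 alternative fits.

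Enzymes that feed the chain had calls in both directions. Of 24 genes of the tricarboxylic acid cycle and pyruvate dehydrogenase, Cs (citrate synthase, 0.62) and Pdk3 (0.98) were higher and Idh2 (-1.25) and Pdk4 lower in epidermal than in subcutaneous ILCs, with a median of 0.05, in log2 fold change. These are 8.33% higher and 8.33% lower, against 6.87% and 13.3% of all genes. The Cs call was lost without epidermal replicate 3, subcutaneous replicate 1 or subcutaneous replicate 3, where its adjusted p was 0.0800, 0.0765 and 0.0685 in edgeR. Pdk4, a kinase that inhibits pyruvate dehydrogenase, had 0 counts in the epidermal libraries and 482 summed over the subcutaneous ones.

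Of 13 tested genes of carriers, uncoupling and electron entry, 1 was higher and 3 lower (7.69% and 23.1%), against 6.87% and 13.3% of all genes. Ucp2, an inner membrane carrier, had 2209, 2469.9 and 2484 CPM in epidermal, 3453 and 3712 in dermal CCR6+, 2703 and 2327 in dermal Sca1+, and 1050.4, 1184 and 1354 in subcutaneous ILCs. The subcutaneous libraries were the 3 lowest. Its log2 fold change over subcutaneous ILCs was 0.997 (adjusted p = 0.00139) in epidermal, 1.58 (adjusted p = 0.000560) in dermal CCR6+ and 1.07 (adjusted p = 0.0101) in dermal Sca1+ ILCs (edgeR). The last had an adjusted p of 0.109 without dermal Sca1+ replicate 1 and 0.0510 without dermal Sca1+ replicate 2 in edgeR. Slc25a3 (-0.91), the phosphate carrier that supplies complex V, was lower in epidermal ILCs, as were Gpd2 (-0.84) and Sqor (-3.15), which pass electrons to ubiquinone. The Gpd2 call was lost without epidermal replicate 1, epidermal replicate 3 or subcutaneous replicate 2, with an adjusted p of 0.0644, 0.0900 and 0.0903 in edgeR.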

How the data were processed

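RNA was amplified with a SMART-seq type kit for low input and made into libraries with Nextera XT, per the labels' protocols. Trimmomatic, STAR, RSEM and the build mm10 are named in the submitters' processing notes, with no versions, and whether counting used strand is not given in the sources used here. The authors deposited RSEM expected counts and TPM per gene and library. IDs were matched to symbols through the reference annotation, 47224 of 47643 with a symbol. Expected counts were rounded to whole numbers and tested with edgeR 4.0.16 in R 4.3.3 (TMM library sizes, filterByExpr with a minimum count of 10, quasi-likelihood test, all 10 libraries in 1 fit with 4 groups). The SE of an edgeR log2 fold change was derived as its absolute value divided by the square root of the test's F statistic. CPM use the TMM library sizes. DESeq2 1.42.0 and limma 3.58.1 on log2(TPM + 1) and log2(TPM + 0.1) were alternatives, as were other filters, scalings, replicate blocks and leaving out each library. The code was tested on simulated data.

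The members and gene lists were chosen with earlier results of these data known. Named genes were members called in a comparison, the highest and lowest of each complex, paired isoforms, core subunits, and called genes of the related lists, up to 4 per direction. For the related lists the text follows epidermal over subcutaneous ILCs. Calls of these lists in the other comparisons are given only in part, and those of Pdp1, Taco1, Pdk1 and Slc25a4 are among the ones left out. Ndufs5, Ndufb3, Ndufv3, Ndufa12, Ndufa9, Atp5d, Atp5e, Ndufb4c and the fifth regulator were named after their values were seen. The values of 1 member are not reported here singly; it stays in the counts, sums and medians.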

Additional observations from a re-analysis of the deposited data

How the results depend on the processing

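For epidermal over subcutaneous ILCs, 3 members were called higher and 0 lower, against 6.87% and 13.3% of all genes. The counts were 5 and 1 with DESeq2, against 9.23% and 16.9% of all genes. They were 29 and 2 with limma on log2(TPM + 1), against 12.7% and 13.8%, and 31 and 2 on log2(TPM + 0.1), against 12.1% and 13.8%. They were 6 and 0 with no filter beyond 1 count, against 5.11% and 10.9% of all genes. With only both groups compared they were 1 and 1, against 7.77% and 15.6%. With only the runs that hold all 4 groups they were 6 and 0, against 4.77% and 9.62%. Leaving out 1 epidermal or subcutaneous library gave 1 to 13 higher and 0 lower, against 4.35 to 6.62% and 9.86 to 12.3% of all genes. A replicate block by title number gave 4 higher and 0 lower, against 5.52% and 10.9% of all genes. A block by runs gave 11 higher and 0 lower, against 6.88% and 12.1%. Deviations of same-numbered libraries from their group means correlated by -0.0381 to 0.114 over 13 pairs for titles, and by -0.0219 to 0.114 for runs. The highest value was that of epidermal replicate 1 with subcutaneous replicate 1. With 2 or 3 libraries a group, this check cannot tell if either number pairs the samples. For epidermal over dermal CCR6+ ILCs, DESeq2 called 3 lower, against 8.74% of all genes. Limma with either pseudocount and the restricted runs called 1 higher, against 2.41%, 2.28% and 1.19% of all genes. For epidermal over dermal Sca1+ ILCs, DESeq2 called 1 higher and 1 lower, against 6.23% and 12.1% of all genes. Limma called 5 or 4 higher, against 5.84% and 5.63%, and 1 lower, against 9.08% and 9.01%. No filter gave 1 lower against 8.03%, the run block 6 higher against 2.72%, and the restricted runs 7 higher against 2.93%. Leaving out 1 epidermal or subcutaneous library gave 0 to 2 higher and 0 lower, against 1.51 to 2.85% and 6.63 to 8.14%. For dermal CCR6+ over subcutaneous ILCs, DESeq2 called 2 higher, against 6% of all genes. Limma called 4 higher, against 5.55% and 5.48% of all genes by pseudocount, and 1 lower, against 6.66% and 6.23%. No filter gave 1 higher against 3.63%, and the run block 1 lower against 3.01%. Leaving out 1 epidermal or subcutaneous library gave 0 to 1 higher, against 2.51 to 4.17% of all genes. For dermal Sca1+ over subcutaneous ILCs, limma called 1 higher, against 2.20% and 1.94% of all genes by pseudocount, and 1 lower, against 3.30% and 2.64%. The cause of these changes was not tested. Over 23 alternatives the members' median log2 fold change stayed between 0.16 and 0.48 for epidermal over subcutaneous ILCs, and it changed sign for epidermal over dermal CCR6+ (-0.08 to 0.24) and dermal Sca1+ over subcutaneous ILCs (-0.04 to 0.21). It was between 0.07 and 0.38 for epidermal over dermal Sca1+, 0.06 and 0.36 for dermal CCR6+ over subcutaneous and 0.10 and 0.16 for dermal CCR6+ over dermal Sca1+ ILCs. Of the named genes, 7 with log2 fold changes near 0 changed sign. For epidermal over subcutaneous ILCs, leaving out 1 library gave -0.098 to 0.32 for Sdhc, -0.15 to 0.20 for Sdhd, -0.17 to 0.20 for Ndufv1, -0.10 to 0.35 for Ndufs1 and -0.11 to 0.27 for Ndufs8. The restricted runs gave -0.046 for Sdhd and -0.23 for Ndufs1, and limma with either pseudocount 0.16 for Ndufv1. For epidermal over dermal CCR6+ ILCs, Atp5c1 became 0.038 with limma at either pseudocount, 0.084 with the run block and 0.034 in the restricted runs, and -0.15 to 0.029 leaving out 1 library. Atp5e became 0.094 with the run block and 0.090 in the restricted runs, and -0.35 to 0.083 leaving out 1 library. With 2 or 3 libraries a group and a biological coefficient of variation of 0.620, changes as small as the members' median are near the standard error of a single gene.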

Other observations

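Mitochondrial ribosomal proteins, which translate the subunits encoded in mitochondrial DNA, had a higher share of calls than the members. Of 78, 12 were higher and 0 lower in epidermal than in subcutaneous ILCs by edgeR's quasi-likelihood test, 15.4% against 6.87% of all genes, with a median log2 fold change of 0.56 and 71 above 0. Mrpl18 averaged 85.3 ± 10.8 CPM in epidermal and 31.8 ± 10.4 CPM in subcutaneous ILCs (SD, n = 3 each; 1.42, SE 0.264, adjusted p = 0.00369, edgeR), and Mrps23 had a log2 fold change of 1.28 (adjusted p = 0.00856, edgeR). Both were called in all 23 alternative fits. Mrpl47 (2.12) and Mrpl22 (1.27) lost their calls in 13 and 9 of them. Of 97 tested cytosolic ribosomal proteins, edgeR called 0 higher and 0 lower, against 6.87% and 13.3% of all genes. At an unadjusted p under 0.05, 0 were higher and 6 lower (6.19%), against 13.2% and 20.4% of all genes. Their median was -0.19. The difference between the lists was not tested.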
